A study of Bos taurus with 15 samples.

Results

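Class I major histocompatibility complex (MHC) genes and the genes that load them with peptide were followed through the digestive tract of newborn (NB) and adult (AD) Holstein cattle by single-cell RNA sequencing. The 6 genes, of 27270 in the files, were BOLA-NC1 (ENSBTAG00000019386), JSP (ENSBTAG00000020116), B2M (ENSBTAG00000012330), TAP1 (ENSBTAG00000008953), TAP2 (ENSBTAG00000003038) and NLRC5 (ENSBTAG00000005413), found by symbol. They were chosen by their level per library in NB against AD barcodes of 4 lineages, so the NB against AD values below are a description and carry no test. Each of the 15 libraries was 1 tissue at 1 stage. The 11 NB libraries covered salivary gland, liver, the forestomach (omasum and reticulum), abomasum, small intestine (ileum, jejunum and duodenum) and large intestine (rectum, colon and cecum). They came from 3 calves, and the sources used here do not give the calf behind each library. The 4 AD libraries were duodenum, jejunum, cecum and colon, all from a single lactating cow. AD gut was dissociated with a lamina propria kit (duodenum, cecum) or a multi tissue kit (jejunum, colon). NB intestine was first incubated with EDTA and trypsin and then treated with enzymes of a propria dissociation kit. The kit type was thus alike at both stages in duodenum and cecum only, and the EDTA and trypsin steps are described for NB only. Stage, animal and dissociation therefore cannot be told apart in any NB against AD value, and no library had a replicate.

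Class I molecules present peptides from the inside of a cell to CD8 T cells and are carried, in differing amounts, by nearly all nucleated cells. The heavy chain (here BOLA-NC1, a non-classical bovine gene, and JSP, a class I heavy chain gene) pairs with the light chain encoded by B2M. Peptides cut by the proteasome enter the endoplasmic reticulum through a transporter made of TAP1 and TAP2, and NLRC5 is a transactivator of these genes. Interferon gamma, signalling through JAK1 and JAK2 to IRF1, is a well known inducer of the whole set, including the immunoproteasome subunits PSMB8 and PSMB9.

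The files held 172405 barcodes, of which 119798 were kept, and the total unique molecular identifiers (UMIs) per library lay between 17707625 and 129458578. Median UMIs per kept barcode were 4402 to 8982 in NB and 3553 to 3910 in AD libraries. Of 118026 kept barcode sequences, 1756 occurred in more than 1 library (2 to 36 in any pair). A barcode was called epithelial if it held EPCAM or KRT14, leukocyte if PTPRC, stromal if COL1A2 and endothelial if PECAM1, with at least 1 further marker of that class and no UMI of the genes naming the others. Levels are given in CPM, a gene's UMIs relative to all UMIs of the class in that library, with exact Poisson 95% intervals that cover counting error only, and a class needed 20 barcodes in a library to be used. The classes were unequal between stages. AD libraries gave 26 to 280 epithelial but 6136 to 6795 leukocyte barcodes, and only AD colon gave enough stromal barcodes (147) while AD jejunum and colon gave 42 and 25 endothelial ones. The rule fixes a high level of the naming genes, and the further markers count towards it, so marker levels describe the classes and are no independent check of them. Among further markers, KRT8 stood at 2360 to 3611 CPM in AD epithelium, COL3A1 at 8567 CPM in AD colon stroma, and CDH5 at 678 and 801 CPM in AD jejunum and colon endothelium. The fibroblast gene COL1A1 stood at 0.07 to 16.4 CPM in leukocytes. Barcodes with a UMI of COL1A2, the stromal naming gene, were left out there, so this value is no independent check either.

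The NB epithelia spanned a wide range of class I levels, lowest in the stratified lining of the forestomach and highest in jejunum and salivary gland. B2M stood at 129 CPM in omasum, 164 in reticulum, 390 in abomasum and 545 in colon. It stood at 1286 CPM in liver, 1537 in rectum, 1599 in cecum and 2199 in duodenum, and at 2432 in ileum, 3577 in salivary gland and 4124 in jejunum. The highest level was 31.9 times the lowest, and 1 of the 10 neighbouring pairs in this order had overlapping intervals. The intervals cover counting error only, and each tissue was 1 library, so they do not show the spread between animals. The share of all genes is not given here.

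JSP followed nearly the same order over a wider range. It was lowest in reticulum (19.1 CPM), omasum (22.3) and abomasum (87.8), stood at 198 CPM in colon, 307 in rectum, 368 in cecum and 371 in liver, and reached 504 in duodenum, 877 in ileum, 910 in jejunum and 2010 in salivary gland. The salivary value came from 20 barcodes, of which 6 held CD3E, and the summed leukocyte genes described below were highest there (386 CPM, against at most 120 in the other NB epithelia). For the sum of the 4 listed class I copies the order at the top was different, with 3262 CPM in salivary gland, 3409 in ileum and 4117 in jejunum. BOLA-NC1 was low in all NB epithelia, between 0.89 CPM in omasum and 23.4 in jejunum with a median of 11.8, and 8 of its 10 neighbouring pairs overlapped.

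The transporter genes differed from each other in spread. TAP1 stood at 0.63 CPM in omasum, 1.86 in reticulum and 3.06 in abomasum, against 17.5 in colon, 29.4 in cecum, 30.1 in rectum, 33 in liver, 39.8 in duodenum, 42.9 in salivary gland, 61.8 in jejunum and 62.6 in ileum. TAP2 had a narrower range, from 11 CPM in abomasum through a median of 40.6 to 83.6 in jejunum, or 7.60-fold against 99.8-fold for TAP1.

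In CPM, AD epithelium held more of these transcripts than NB epithelium in each of the 4 tissues sampled at both stages. For TAP2 in duodenum this depended on the scaling, as given below. JSP stood at 4242, 5588, 2659 and 5293 CPM in AD duodenum, jejunum, cecum and colon, against 504, 910, 368 and 198 CPM in the matching NB libraries. The AD level was 8.42 times the NB level in duodenum (95% interval 7.82 to 9.04), 6.14 times in jejunum (5.97 to 6.32), 7.22 times in cecum (6.75 to 7.73) and 26.8 times in colon (25.5 to 28.2). No AD value overlapped any of the 11 NB values, the nearest being NB salivary gland at 2010 CPM. JSP was chosen by its NB against AD level, and the share of all genes with such a gap is not given here. Reads of JSP may be shared with its near copies, and the sum of the 4 listed class I copies, described further on, gave smaller ratios of 3.23, 2.56, 6.97 and 15.2 in the same order. BOLA, the copy with the most reads in NB duodenum and jejunum, had ratios of only 1.71 and 1.46 there.

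For B2M, the AD levels of 9517, 13497, 5667 and 10897 CPM in the same order were 4.33, 3.27, 3.54 and 20.0 times the NB levels. BOLA-NC1 stood at 169, 269, 109 and 252 CPM in AD, which was 14.6 (9.81 to 21.1), 11.5 (9.83 to 13.5), 9.30 (6.41 to 14.0) and 55.8 (40.5 to 78.9) times the NB level. Colon thus had the largest ratio for each of these genes, and NB colon was also the lowest of the 4 NB tissues.

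TAP1 stood at 190, 403, 108 and 262 CPM in AD duodenum, jejunum, cecum and colon, or 4.78, 6.53, 3.67 and 15 times the NB level. TAP2 had the smallest ratios of the 5 genes that reached a mean of 10 CPM. Its AD levels were 120, 233, 83.5 and 173 CPM, at 1.60 (1.00 to 2.43), 2.79 (2.47 to 3.14), 1.82 (1.47 to 2.28) and 5.11 (4.35 to 6.01) times the NB level. The interval in duodenum, where the AD class had 26 barcodes, touched equality.

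**Figure D1:**
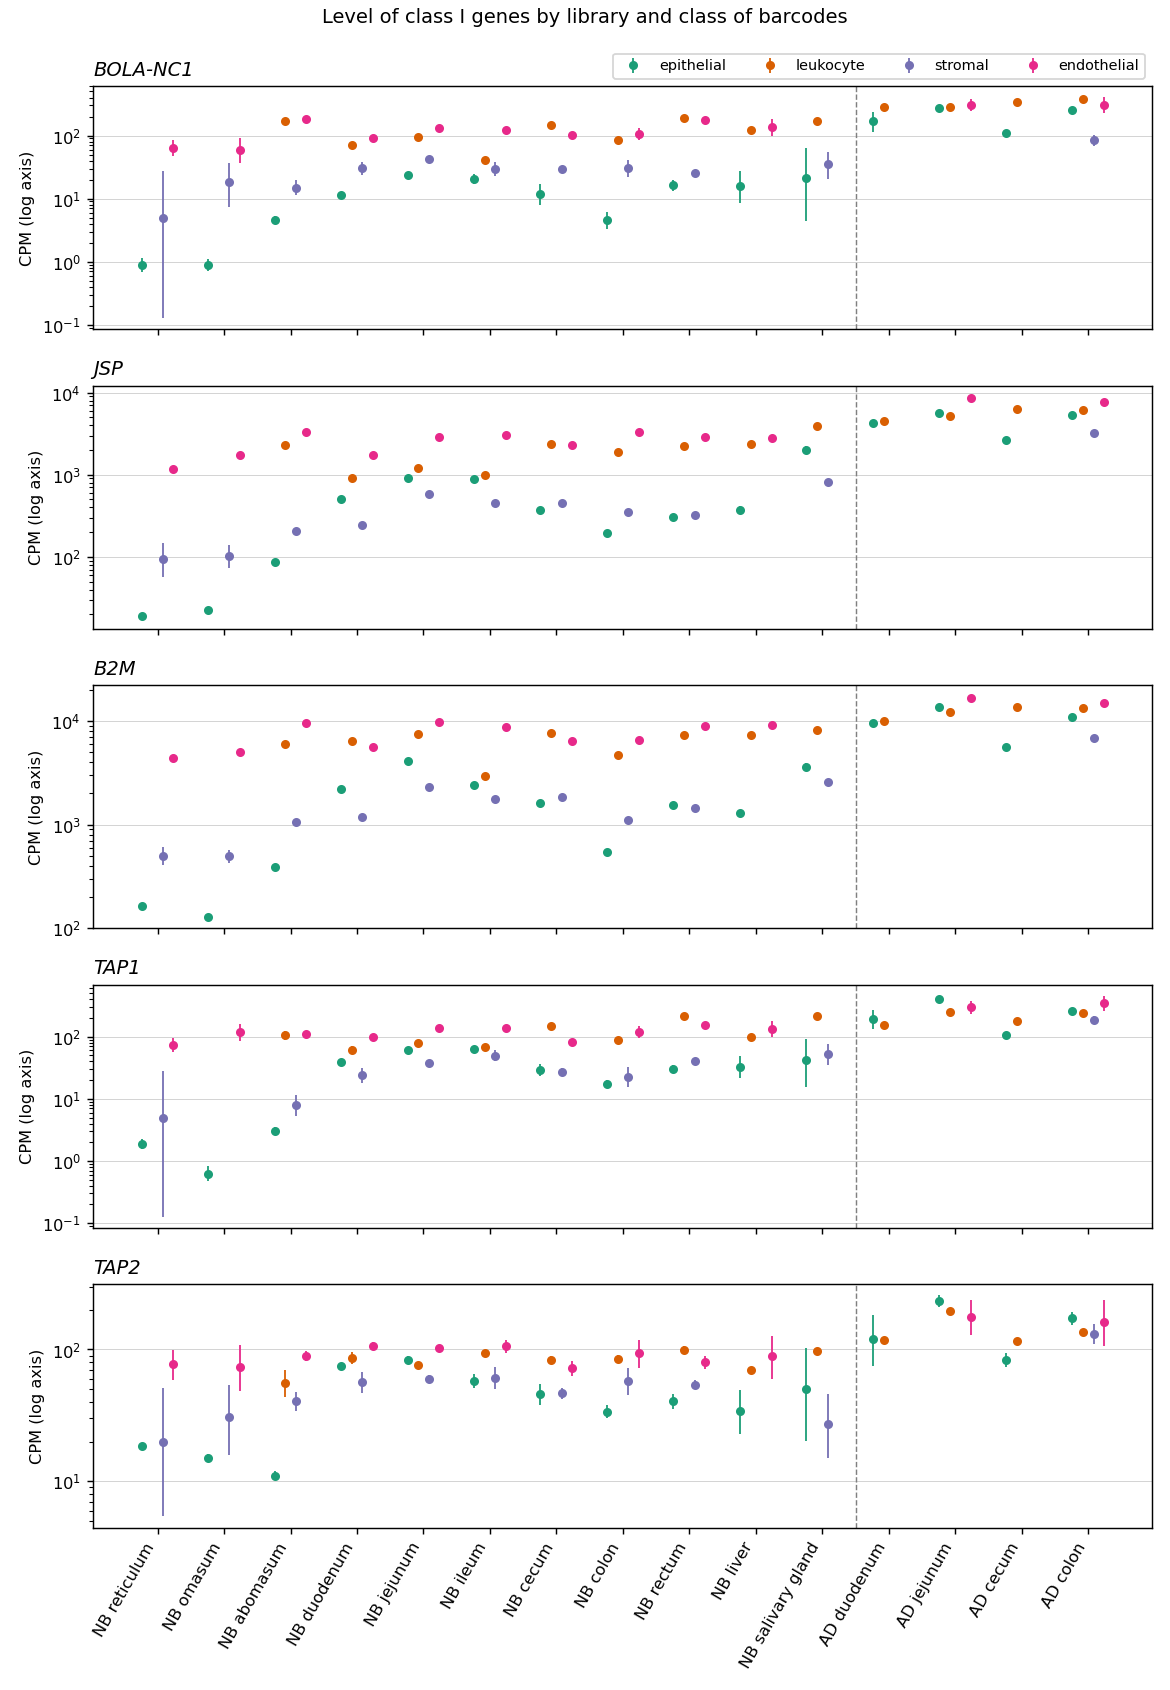
Level of 5 genes (CPM, log axis) in each NB and AD library, with colours for the 4 classes of barcodes, bars for exact Poisson 95% intervals and a dashed line between NB and AD libraries; a value of 0 is not drawn. JSP, B2M and TAP1 in NB epithelium are lowest in reticulum, omasum and abomasum, and JSP in AD epithelium lies at 2659 CPM or more.

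A gene was counted as past 2-fold when log2((NB CPM + 5)/(AD CPM + 5)) passed 1 in size and its mean was at least 10 CPM. In epithelium of duodenum, jejunum, cecum and colon, 4, 5, 4 and 5 of the 5 genes were past 2-fold lower in NB, and none was higher. Of all genes at this level, 26.1%, 16.5%, 7.78% and 18.3% were lower and 8.75%, 5.63%, 4.81% and 3.78% were higher in NB by the same measure. The pairs that passed the limit by least were B2M in jejunum (log2 -1.71) and TAP2 in jejunum (log2 -1.42), and those that did not pass it were TAP2 in cecum (log2 -0.80) and duodenum (log2 -0.64). The median log2 difference over the 5 genes was -2.12, -2.61, -1.82 and -4.31 in duodenum, jejunum, cecum and colon, beside -0.43, -0.32, -0.21 and -0.40 over all genes tested. Scaling by trimmed mean of M values (TMM), which sets libraries by their shared genes, moved log2 values in epithelium up by 0.68, 0.47, 0.21 and 0.54, and TAP2 in jejunum was then at log2 -0.97, short of 2-fold, which left 17 of 20 pairs past it. The shift of 0.68 in duodenum was about the size of the TAP2 difference there (log2 -0.64). Cecum values also shrank under other processing. TAP1 there was at log2 -0.82, short of 2-fold, without exclusion of other classes. The smallest cecum differences under any alternative were -1.08 for B2M, -1.87 for JSP and -1.66 for BOLA-NC1.

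**Figure D2:**
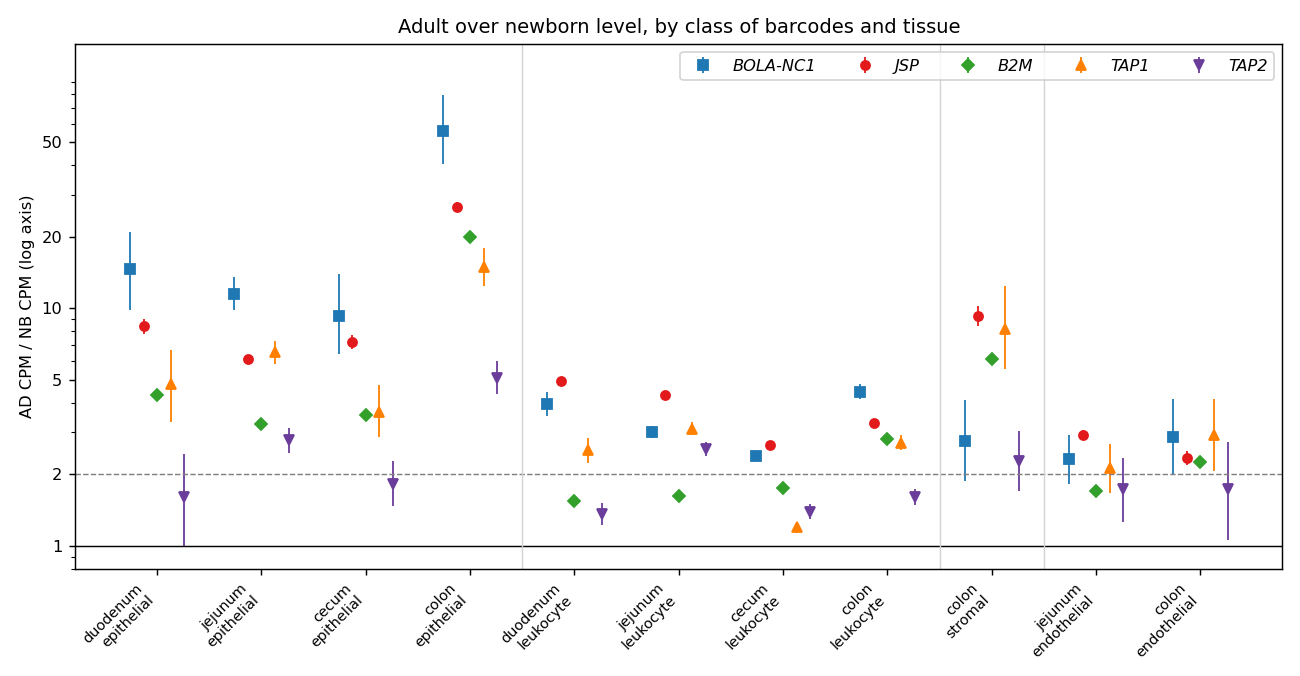
AD CPM divided by NB CPM (log axis) for 5 genes in each class and tissue with both stages; bars are exact 95% intervals of the ratio (counting error only), the solid line marks equality and the dashed line 2-fold. Colon epithelium has the highest ratios, from 5.11 for TAP2 to 55.8 for BOLA-NC1.

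Markers of other cells were also measured in the epithelial class. The summed level of 10 leukocyte genes (CD3E, CD3D, CD2, CD52, CORO1A, LAPTM5, TYROBP, CD79A, GZMA, NKG7) was 112 to 218 CPM in AD and 3.80 to 386 CPM in NB epithelium. In duodenum, jejunum, cecum and colon it was 23.3, 44.4, 120 and 61.2 CPM in NB and 218, 203, 112 and 150 in AD, so it was higher in AD in all but cecum. In AD epithelium 8 of 10 were above 0 in duodenum and all 10 in the other tissues. Relative to leukocytes of the same library, that sum was 2.68%, 2.63%, 0.97% and 1.29% in AD duodenum, jejunum, cecum and colon. Over the same libraries, B2M in epithelium stood at 95.7%, 110%, 42.0% and 82.2% of its leukocyte level, and JSP at 95.1%, 107%, 42.7% and 85.1%. In NB epithelium B2M stood at 34.0%, 54.7%, 20.7% and 11.6% of the leukocyte level. Barcodes with a PTPRC UMI were left out of the epithelial class, so a low share for the leukocyte list is partly set by the class rule. The part of leukocyte RNA in the epithelial class I levels was not tested.

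The plasma cell gene JCHAIN was high in 1 of these libraries. In AD jejunum epithelium it stood at 3156 CPM, 66.2% of its leukocyte level, against 1.03% to 2.00% in the other AD epithelia. Leaving out barcodes with 10 or more JCHAIN UMIs kept 163 of 167 AD jejunum barcodes. The count of 18 pairs past 2-fold was then again 18, an alternative added after the data were seen. Without barcodes that held any UMI of the 10 leukocyte genes, AD duodenum had 15 barcodes and could not be used, and 14 of 15 pairs in the other tissues were past 2-fold. The tuft cell gene AVIL stood at 174 and 147 CPM in AD duodenum and jejunum epithelium, 17.0 and 29.8 in AD cecum and colon, and at most 2.31 in NB. Without barcodes holding a tuft marker the count was again 18.

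**Figure D3:**
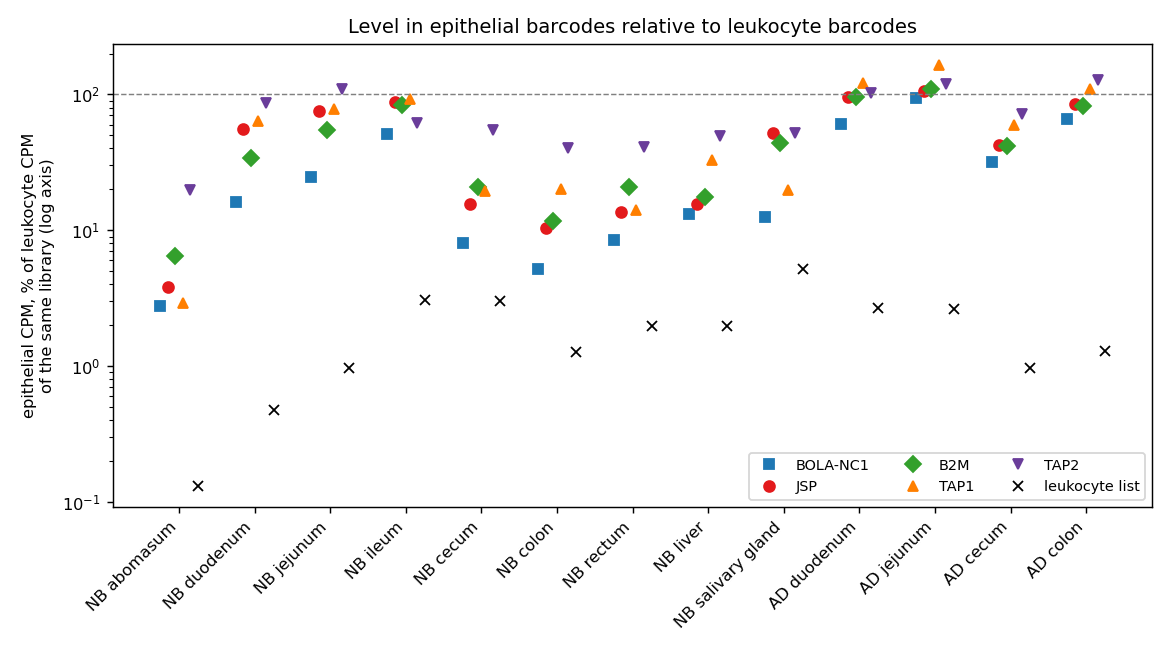
Epithelial CPM as a percentage of leukocyte CPM of the same library (log axis) for 5 class I genes and for the summed list of 10 leukocyte genes. In AD libraries the leukocyte list lies at 0.97% to 2.68%, a share partly set by leaving out PTPRC barcodes, and B2M lies at 42.0% to 110%.

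The share of epithelial barcodes with a transcript was also measured. It rests on the same UMIs and libraries as the CPM values and is no separate support for them. With each barcode thinned to 1000 UMIs, JSP was found in 37.8%, 56.2%, 26.5% and 15.4% of NB duodenum, jejunum, cecum and colon barcodes and in 100%, 95.7%, 83.1% and 91.6% of AD ones. B2M was found in 81.3%, 93.8%, 65.0% and 34.1% of NB and in 96.0%, 100%, 94.5% and 96.1% of AD barcodes. Thinning left out 0 to 6 NB and 1 to 9 AD barcodes per library, and before it B2M was found in 83.7% of NB and 95.1% of AD colon barcodes. CD3E, a T cell gene that epithelium should lack, was found in 0% to 0.95% of these NB and 1.83% to 5.81% of AD epithelial barcodes after thinning. Before it, CD3E was found in 5 of 26, 20 of 167, 42 of 280 and 25 of 164 AD duodenum, jejunum, cecum and colon barcodes. The matching NB counts were 2 of 2854, 4 of 810, 3 of 226 and 19 of 744. Barcodes with a PTPRC UMI were left out, so these shares are partly set by the class rule. In NB reticulum and omasum B2M was found in 15% and 12.2% of barcodes.

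Dividing epithelial barcodes, those with MKI67 or TOP2A, could be compared in cecum and colon. In colon JSP stood at 208 CPM in 162 NB and 5321 CPM in 21 AD barcodes, a ratio of 25.5 (22.9 to 28.5). In cecum it stood at 254 CPM in 43 NB and 2656 CPM in 21 AD barcodes, a ratio of 10.46 (8.82 to 12.5). B2M had ratios of 16.1 and 5.2.

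Leukocytes carried high levels at both stages, and the AD over NB ratios of JSP, B2M, BOLA-NC1 and TAP1 were smaller than in epithelium of the same tissue. For the sum of the 4 class I copies this did not hold in duodenum (3.31 against 3.23 in epithelium) and jejunum (2.64 against 2.56). B2M lay between 2929 CPM in NB ileum and 8161 in NB salivary gland, with a median of 7292 over 9 NB libraries, and stood at 9949, 12230, 13507 and 13254 CPM in AD duodenum, jejunum, cecum and colon. The AD values lay above all NB values, at 1.54, 1.62, 1.75 and 2.82 times the matching NB level. B2M too was chosen by its NB against AD level, and the share of all genes with such a gap is not given here. JSP lay between 901 CPM in NB duodenum and 3887 in NB salivary gland, and stood at 4459, 5232, 6230 and 6223 CPM in AD, or 4.95, 4.31, 2.67 and 3.29 times the NB level.

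BOLA-NC1 in leukocytes lay between 40.4 and 189 CPM in NB and between 280 and 385 in AD, with ratios of 3.94, 3.02, 2.38 and 4.46. TAP1 overlapped between stages, with 156, 245, 180 and 237 CPM in AD duodenum, jejunum, cecum and colon beside NB values of 61.9 to 217 CPM. Its ratio in cecum was 1.2. TAP2 lay between 55.3 and 99.0 CPM in NB, where all 8 neighbouring pairs overlapped, and between 117 and 195 CPM in AD.

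In leukocytes 3, 4, 2 and 4 of the 5 genes were past 2-fold lower in NB duodenum, jejunum, cecum and colon and none was higher. With all leukocytes that hold CD3E, and no others, 4 of these 13 pairs fell short of 2-fold: TAP1 in duodenum (log2 -0.78) and colon (-0.96), BOLA-NC1 in cecum (-0.96) and JSP in jejunum (-0.90). Of all genes tested, 16.4%, 7.94%, 11.8% and 11.6% were lower and 12.9%, 5.38%, 13.8% and 10.7% higher. The median log2 difference was -1.27, -1.54, -0.81 and -1.5, beside -0.21, -0.18, -0.13 and -0.04 over all genes. The make-up of the class differed between stages: the T cell gene CD3E stood at 47.7, 32.7, 195 and 451 CPM in NB and at 1405, 836, 2455 and 2584 in AD leukocytes, while the macrophage gene CSF1R stood at 538, 770, 192 and 72.8 CPM in NB and 58.5, 248, 14.9 and 27.4 in AD.

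Leukocytes were also divided into those with CD3E, CD79A or CSF1R and no UMI of the other two. Within those with CD3E, JSP ratios were smaller than in all leukocytes of each tissue, at 2.28 (2.03 to 2.57) in duodenum from 26 NB barcodes and 1.67 (1.58 to 1.78) in jejunum from 89. They were 2.57 in cecum and 2.18 in colon, and B2M ratios were 2.16, 1.35, 1.98 and 1.97. The TAP1 ratio in cecum was 0.99 (0.90 to 1.10). Within leukocytes with CSF1R, JSP was 5.39, 6.03, 1.99 and 4.30 times and B2M 1.61, 2.06, 1.43 and 2.57 times the NB level. Leukocytes with CD79A could be compared in the large intestine only, and the plasma cell gene JCHAIN was not used to divide them. In cecum the AD level was below NB for B2M (0.62, interval 0.60 to 0.64), JSP (0.94, 0.90 to 0.99) and TAP1 (0.65, 0.53 to 0.80), whereas in colon it was 1.63, 1.66 and 2.07 times the NB level. For BOLA-NC1 in cecum the ratio was 1.13 (0.94 to 1.38), and for TAP2 it was 1.27 (1.02 to 1.59).

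**Figure D4:**
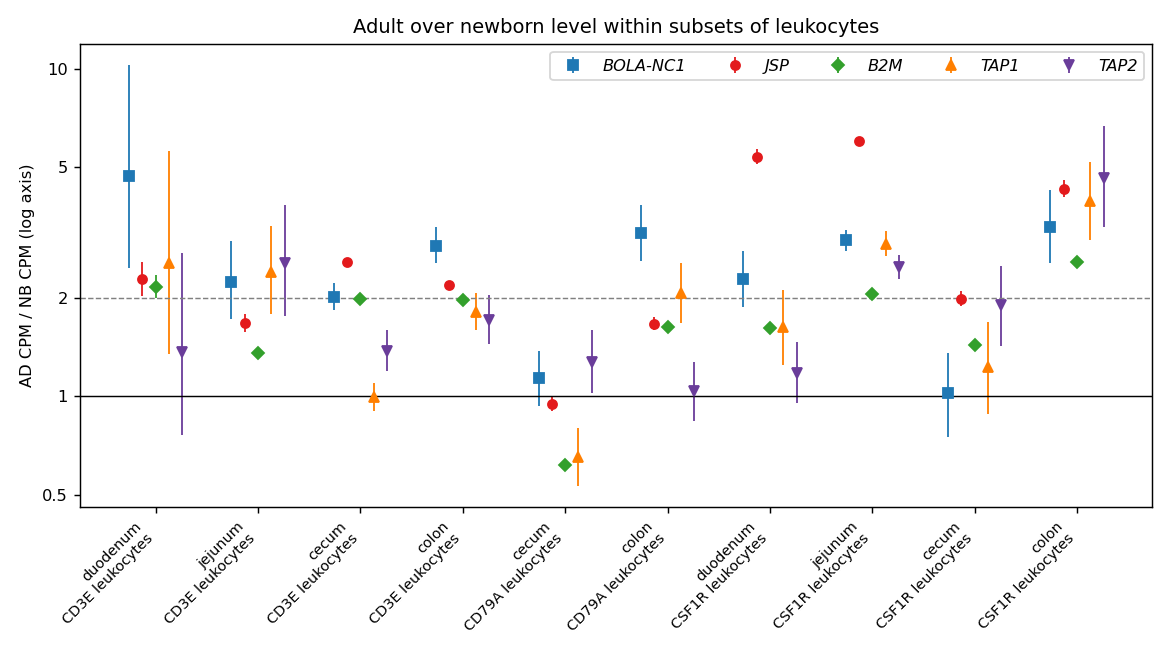
AD CPM divided by NB CPM (log axis) for 5 genes within leukocytes that hold 1 of CD3E, CD79A and CSF1R and not the others, by tissue, with exact 95% intervals; the solid line marks equality and the dashed line 2-fold. JSP ratios are highest in CSF1R leukocytes of jejunum (6.03) and duodenum (5.39), and B2M in CD79A leukocytes of cecum lies below equality (0.62).

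Stroma, mainly fibroblasts, could be compared in colon only. B2M stood at 1113 CPM in NB and 6783 in AD colon, a ratio of 6.09 (5.76 to 6.45), and JSP at 349 and 3249 CPM, a ratio of 9.31 (8.44 to 10.3). TAP1 stood at 22.8 and 186 CPM, BOLA-NC1 at 30.4 and 83.8, and TAP2 at 57.8 and 131. All 5 were past 2-fold lower in NB, beside 9.24% of genes tested lower and 5.61% higher, with a median log2 difference of -2.60 against -0.06 over all genes. With barcodes thinned to 1000 UMIs, BOLA-NC1 was at log2 -0.05 instead of -1.33. The AD colon value of each of the 5 genes lay above the 10 NB stromal values, which for B2M ran from 495 CPM in omasum to 2552 in salivary gland. The genes were chosen by NB against AD level, and the share of all genes with such a gap is not given here. The leukocyte list summed to 61.6 CPM in NB and 151 CPM in AD colon stroma, and 4 of the 5 genes were past 2-fold without barcodes holding a gene of that list.

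Endothelium had high levels already in NB. B2M ran from 4402 CPM in reticulum to 9856 in jejunum with a median of 7618 over 10 NB libraries, a 2.24-fold range, and stood at 16721 CPM in AD jejunum and 14772 in AD colon. JSP ran from 1160 to 3323 CPM in NB and stood at 8481 and 7740 CPM in AD. TAP2 varied least, from 72.0 to 107 CPM in NB with all 9 neighbouring pairs overlapping, and stood at 177 and 162 CPM in AD. The AD over NB ratios in jejunum and colon were 2.94 and 2.34 for JSP, 1.70 and 2.25 for B2M, 2.33 and 2.88 for BOLA-NC1, 2.13 and 2.93 for TAP1 and 1.73 in both for TAP2.

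In endothelium 3 of 5 genes in jejunum and 4 in colon were past 2-fold lower in NB, and none was higher, beside 9.57% and 14.5% of genes tested lower and 6.62% and 10.8% higher, with median log2 differences of -1.06 and -1.23 against -0.14 and -0.08. This count of 7 rested on the marker rule: with PECAM1 alone as the criterion, which took 126 AD jejunum and 54 AD colon barcodes, it was 0, and with TMM scaling it was 4. JCHAIN stood at 12119 CPM in AD jejunum endothelium, and 41 of its 42 barcodes held under 10 JCHAIN UMIs; without the other barcode the count was again 7. The leukocyte list summed to 265 and 238 CPM in NB and to 160 and 106 CPM in AD jejunum and colon endothelium. Without barcodes holding a gene of that list only jejunum, with 20 AD barcodes, could be used, and 2 genes were past 2-fold there.

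Across lineages, endothelium lay above epithelium in NB. For BOLA-NC1, JSP, B2M, TAP1 and TAP2 the endothelial interval lay above the epithelial one in 10 of 10 NB libraries with both classes. For TAP2 this held in 6 of 10 after thinning. The share of all genes with this order is not given here. The NB libraries came from 3 calves and are not independent replicates. The summed leukocyte genes were also higher in endothelium than in epithelium of each of these libraries. They stood at 28.4 to 1284 CPM against 3.80 to 120 CPM, and their part was not tested. Among the 12 libraries with at least 3 classes, endothelium included, endothelium was the highest class in 9 for BOLA-NC1, 11 for JSP, 10 for B2M, 9 for TAP1 and 8 for TAP2. Epithelium was the lowest class in 11, 7, 6, 5 and 8 of them.

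NLRC5 was close to the limit of detection in every class. In NB epithelium it had 0 to 8 UMIs per library (at most 0.59 CPM, in ileum), and a count of 0 in jejunum allowed a level of up to 0.29 CPM. AD epithelium had 1, 5, 2 and 9 UMIs in duodenum, jejunum, cecum and colon, or 5.44, 2.91, 0.57 and 5.16 CPM. In leukocytes it stood at 0 to 1.68 CPM in NB and at 3.98, 1.88, 2.34 and 6.10 CPM in AD duodenum, jejunum, cecum and colon, from 65 to 184 UMIs per AD library. The matching NB leukocytes had 0, 0, 0.83 and 0.43 CPM. The lowest AD leukocyte value (interval 1.45 to 2.40) overlapped the highest NB one, in salivary gland (1.00 to 2.66). In AD jejunum and colon endothelium it had 2 UMIs each (8.02 and 12.4 CPM), against 0 to 5 UMIs in NB endothelium (0 to 3.06 CPM). Its mean reached 10 CPM in no comparison, so it was not counted.

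Bovine class I heavy chain genes are near copies of each other, and Cell Ranger, which the authors used, counts only reads placed in a single gene, so the split of reads among them is uncertain. The sum of the 4 listed copies (BOLA-NC1, JSP, BOLA and BoLA) was therefore also compared. In epithelium it stood at 2335, 4117, 688 and 636 CPM in NB and 7554, 10535, 4793 and 9684 in AD duodenum, jejunum, cecum and colon, or 3.23, 2.56, 6.97 and 15.2 times the NB level. In leukocytes the ratios were 3.31, 2.64, 2.56 and 2.72. They were 6.91 in colon stroma and 1.81 and 1.66 in jejunum and colon endothelium.

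The share of JSP within that sum differed between libraries. It was 53.0% to 60.1% in all AD classes used. In NB epithelium it was 21.6% in duodenum (interval 21.3 to 21.9), 22.1% in jejunum, 25.7% in ileum, 28.6% in liver and 31.1% in colon, but 53.5% in cecum, 53.8% in rectum, 55.1% in abomasum, 60.9% in reticulum, 61.6% in salivary gland and 61.8% in omasum, and BOLA made up most of the rest. In NB leukocytes it ran from 34.1% in jejunum to 56.6% in salivary gland. The JSP ratio alone (8.42 in duodenum) therefore exceeded the ratio of the sum (3.23). BOLA alone stood at 1815, 3176, 299 and 426 CPM in NB and 3105, 4625, 1993 and 4072 CPM in AD epithelium of duodenum, jejunum, cecum and colon, or 1.71 (1.57 to 1.86), 1.46 (1.42 to 1.49), 6.67 and 9.57 times the NB level. It was thus past 2-fold in cecum and colon only, and with TMM scaling it was at log2 -0.10 in duodenum and -0.07 in jejunum. In leukocytes the BOLA ratios were 2.31, 1.71, 2.47 and 2.16, short of 2-fold in jejunum. They were 5.17 in colon stroma and 1.18 and 1.17 in jejunum and colon endothelium, where BOLA did not pass 2-fold. The class I alleles of the 3 calves and the cow were not examined, and their part in how reads fell on each copy was not tested.

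Beyond the 6 genes, 39 other genes of peptide supply, loading, interferon signalling and class I recognition were listed. In epithelium 36 of 107 gene and tissue pairs that reached 10 CPM were past 2-fold lower in NB and 5 were higher. By tissue, 9 of 27 were lower in duodenum, 8 of 27 in jejunum, 4 of 26 in cecum and 15 of 27 in colon, beside 26.1%, 16.5%, 7.78% and 18.3% of all genes tested, so the duodenum count was near the background. The pairs higher in NB numbered 2, 2, 1 and 0, beside 8.75%, 5.63%, 4.81% and 3.78%. With TMM scaling the split was 19 lower and 19 higher of 106, and the share of all genes under that scaling is not given here. The median log2 difference of the list was -0.16, -0.54, -0.34 and -1.07, beside -0.43, -0.32, -0.21 and -0.40 over all genes, and in duodenum it was thus nearer to 0 than that of all genes.

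The immunoproteasome subunits PSMB9 and PSMB8 were among those lower in all 4 NB epithelia, although with TMM scaling PSMB8 was lower in 2 only (log2 -0.40 in duodenum and -0.66 in jejunum). PSMB9 stood at 108, 281, 72.9 and 35.3 CPM in NB and 517, 912, 242 and 413 in AD duodenum, jejunum, cecum and colon. PSMB8 stood at 361, 558, 180 and 114 CPM in NB and 761, 1225, 512 and 867 in AD. The other immunoproteasome subunit, PSMB10, was at log2 -0.16, -0.48, -0.51 and -1.07, past 2-fold in colon only and in 0 of 4 tissues with TMM scaling. The constitutive subunits that these 3 replace, PSMB5, PSMB6 and PSMB7, were past 2-fold in none of the 4 tissues, with log2 differences between -0.08 and 0.79. With TMM scaling they were past 2-fold higher in NB in 2 tissues for PSMB5 and PSMB6 and in 1 for PSMB7, the highest value being log2 1.43 for PSMB6 in duodenum. PSMB8, PSMB9, TAP1 and TAP2 lie next to each other within the bovine MHC.

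Interferon signalling genes showed the same pattern only in part. IRF2 was past 2-fold lower in all 4 NB epithelia (38.5, 22.3, 32.9 and 35.9 CPM against 179, 119, 78.1 and 111). IRF1 and JAK1 were lower in 3 of 4, and cecum was the exception for each. With TMM scaling IRF2 was lower in 3 (log2 -0.94 in cecum), IRF1 in 1 (colon) and JAK1 in 0 of the 4. JAK2 was lower in 2 of 4 (1 with TMM scaling) and the receptor gene IFNGR1 in 1 of 4 (0 with TMM scaling). The other receptor gene, IFNGR2, reached a mean of 10 CPM in 0 of the 4. IRF1 stood at 31.7 CPM in NB and 172 in AD colon, and at 57.6 and 46.6 CPM in cecum. The trimming peptidase ERAP2 was also lower in 3 of 4, whereas the loading chaperone TAPBP was past 2-fold in colon only (69.8 and 192 CPM). In the other direction, the endoplasmic reticulum chaperone HSPA5 was higher in NB in 3 of 4 epithelia and CALR in 2. With TMM scaling ERAP2 was lower in 2 and TAPBP in 0, TAPBP was higher in 1, and HSPA5 and CALR were each higher in 3.

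In leukocytes 31 of 133 pairs were past 2-fold lower in NB and 17 were higher. By tissue, 8 of 33, 11 of 35, 6 of 32 and 6 of 33 were lower and 4, 3, 6 and 4 higher, beside 16.4%, 7.94%, 11.8% and 11.6% of all genes lower and 12.9%, 5.38%, 13.8% and 10.7% higher. The T cell genes CD8A, CD8B and IFNG were lower in all 4 tissues, so each gave 4 of the 31 lower pairs. Their difference cannot be told apart from that in the make-up of the class, given CD3E above. Without these 3 genes the share of lower pairs in each tissue would lie nearer to that of all genes. IFNG stood at 4.90, 2.49, 14.6 and 16.2 CPM in NB and 25.9, 50.5, 66.6 and 154 in AD. Its receptor genes went the other way where past 2-fold. IFNGR1 was higher in NB duodenum (log2 1.13) and cecum (1.58), and IFNGR2 in NB jejunum (1.23). JAK1, IRF1 and IRF2 were each lower in 1 tissue. TAPBP was lower in 3 of 4 (in 1 with TMM scaling), but PSMB8 in none. FCGRT, the heavy chain of the neonatal Fc receptor, which also pairs with B2M, was higher in NB in all 4, with log2 differences of 1.22 to 2.90. IFNGR1, IFNGR2 and FCGRT were not compared within the leukocyte subsets. Their difference too cannot be told apart from that in the make-up of the class, given CSF1R above. In colon stroma 9 of 30 pairs were lower and none higher, beside 9.24% and 5.61% of all genes, and PSMB9 (log2 -3.25) was among the 9. In endothelium 5 of 29 pairs in jejunum and 6 of 27 in colon were lower, beside 9.57% and 14.5% of all genes, and 1 was higher, beside 6.62% and 10.8%. The split of 11 lower and 1 higher was 7 and 5 with TMM scaling, 13 and 10 with counts thinned to 1000 UMIs, and 4 and 3 in jejunum without barcodes holding a leukocyte gene. The share of all genes under these alternatives is not given here.

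**Figure D5:**
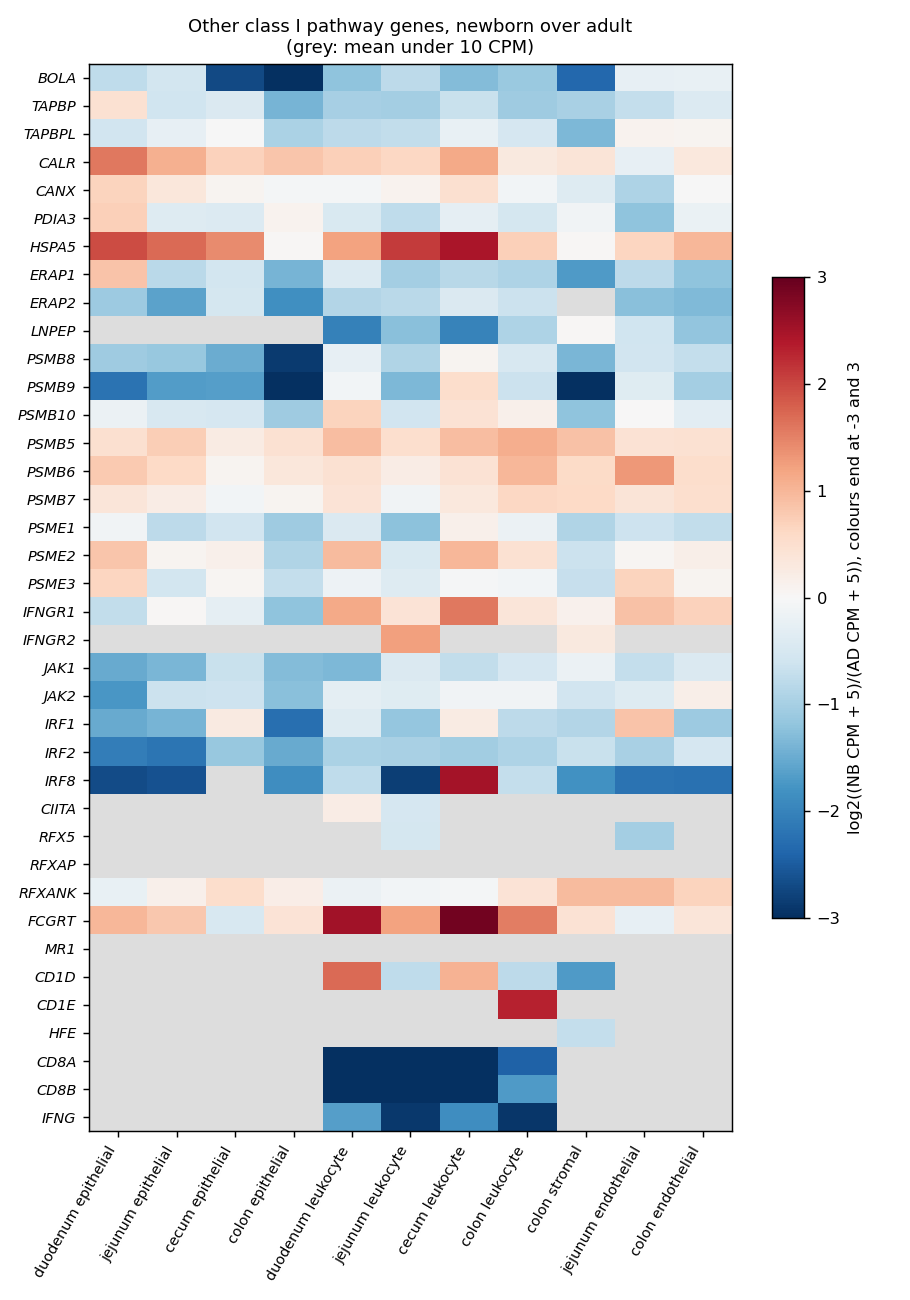
Heat map of log2((NB CPM + 5)/(AD CPM + 5)) for the listed pathway genes (rows, 1 listed gene not shown) by tissue and class (columns), with blue for lower in NB, red for higher in NB, grey for a mean under 10 CPM and colours ending at -3 and 3. PSMB8, PSMB9 and IRF2 are blue in all 4 epithelial columns and FCGRT is red in all 4 leukocyte columns.

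The 6 genes were compared with 8595 genes over 47 points, each a class of at least 50 barcodes in a library, by Pearson's correlation of log2(CPM + 5). The points share libraries and depth, so the values are a description. JSP was most like B2M (r = 0.98), and BOLA-NC1 was most like JSP (0.95). TAP1 was most like JSP (0.97) and B2M (0.96), with PSMB9 at 0.93, and TAP2 was most like TAP1 (0.91) and TAPBP (0.90). The gene most like B2M was ENSBTAG00000048782 (r = 0.99), to which the files pair no name and whose level was 55.1% to 129% of that of B2M. NLRC5 had r of 0.56 to 0.65 to the other 5 (0.31 to 0.52 over the 39 NB points alone), and its nearest gene was EP400 at 0.78. Its few UMIs limit these values, and within a class they were 0.68 to 0.84 in epithelium (13 points) and 0.62 to 0.85 in leukocytes (13 points), but 0.01 to 0.61 in stroma (11 points) and 0.01 to 0.20 in endothelium (10 points). Within endothelium alone (10 points) TAP2 had r of only 0.33 to 0.43 with BOLA-NC1, JSP, B2M and TAP1.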

How the data were processed

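The authors deposited, for each library, a matrix of raw UMI counts per gene and barcode made from 10x Genomics 3' libraries with Cell Ranger 3.1.0 (per the submitters' processing notes) on the ARS-UCD1.2 cattle genome. The counts were used as deposited. Barcodes with 500 to 4000 genes, under 50000 UMIs and under 40% UMIs of 13 mitochondrial genes were kept, and doublets were removed by Scrublet as run in scanpy 1.11.5, at 0.8% per 1000 barcodes. Counts were summed per class and library. AD over NB ratios carry exact conditional binomial intervals. With 1 library per tissue and stage no test was possible. Python 3.11.15, NumPy 2.4.6, SciPy 1.17.1, pandas 2.3.3 and, for TMM factors, edgeR 4.0.16 in R 4.3.3 were used. On simulated counts with 200 genes changed 4-fold, 184 were past 2-fold in epithelial cecum and 168 in leukocyte colon. Of the pathway list, 1 gene is counted but not reported here by itself. The 6 genes and the lists were chosen with earlier results of these data known. Genes named in the text are the 6, genes of the fixed lists and, for each of the 6, the genes most like it. Alternatives were another scaling, pseudocount, low-value filter, marker rule, mitochondrial limit, doublet and gene limit, thinning, and leaving out barcodes by marker. No sequences or coordinates are given, since the reference tables at hand hold no genome of the authors' build.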

Additional observations from a re-analysis of the deposited data

How the results depend on the processing

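Of 178 alternative values for the summary counts, 172 were within 1.5 times the value reported. Of 954 alternative values for single genes in a class and tissue, 223 moved beyond counting error. The split of pathway pairs in epithelium, 36 lower and 5 higher in NB, was 19 and 19 with TMM scaling, although their total moved less. No share of all genes under that scaling is given beside it. The number of pairs past 2-fold lower in NB was 14 to 19 in epithelium (18 reported), 10 to 14 in leukocytes (13) and 4 to 5 in colon stroma (5). The values of 14 came from 3 tissues, because duodenum then had under 20 or under 50 barcodes. In endothelium the count of 7 was 4 with TMM scaling, 0 with the naming gene alone and 2 in the 1 tissue left without barcodes holding a leukocyte gene. The count of 12 pathway gene and tissue pairs in endothelium was 23 with counts thinned to 1000 UMIs and 7 without barcodes holding a leukocyte gene. The number of NB libraries with endothelial above epithelial TAP2 was 6 of 10 after thinning. The causes were not tested, beyond the lower counts that thinning leaves. Of the 43 values past 2-fold, 15 fell short of 2-fold under at least 1 alternative, among them 7 of 7 in endothelium, 4 of 13 in leukocytes, 2 of 5 in stroma and 2 of 18 in epithelium (TAP2 in jejunum, -0.97 with TMM scaling, and TAP1 in cecum, -0.82 without exclusion of other classes). BOLA-NC1 in colon stroma moved most, from a log2 difference of -1.33 to -0.05 with thinning, and JSP in leukocytes moved from -2.30 to -1.10 in duodenum and from -2.10 to -0.90 in jejunum with all leukocytes holding CD3E, those with CD79A or CSF1R included.

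No paired analysis was possible because the 4 AD tissues came from 1 cow and the calf behind each NB library is not given, so that tissues are not replicate pairs. No replicate could be left out, since each tissue and stage had 1 library. The AD classes of 26 epithelial (duodenum) and 25 and 42 endothelial barcodes limit precision there, as do the few UMIs of NLRC5. Leaving out barcodes with leukocyte genes or with JCHAIN, and the limit of 50 barcodes, were chosen after seeing the data.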
